A study of Homo sapiens with 4 samples.

Results

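The genes described here are PLTP and 8 other lipid genes, ABCA1, ABCG1, APOE, MYLIP, LPCAT3, SMPDL3A, NPC1 and NPC2, which makes 9 of the 23228 gene symbols with read counts. PLTP was chosen because it was among the upregulated genes in these same samples, so its difference between the groups is given below as a description, with no test. The others were chosen by their role, as genes induced by the liver X receptors or as partners in cholesterol export. Their symbols were looked up in the count files, all 9 were found, and all 9 passed the filter on low counts that left 14473 genes for testing.

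The libraries came from ovarian cancer stem cells (OCSCs) of SKOV3, an established human ovarian cancer cell line, sorted with the ALDEFLUOR kit for high aldehyde dehydrogenase activity (ALDH+) and cultured as serum-free spheroids. The vehicle group held 2 samples and the LY500307 group held 2 samples that received 5 µM of LY500307, an agonist of estrogen receptor β (ERβ), and RNA was taken from both groups after 24 h. The comparison asks which transcripts differed once the agonist was added. Each group is 1 cell line, and the labels do not say whether the samples of a group were separate cultures, so the p-values below measure only the spread between these samples, which may be technical.

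Between 28841701 and 34943882 reads per sample were assigned to genes. Chi-square divided by its degrees of freedom, for the gene counts of a group's samples, was 5.16 for vehicle and 42.5 for LY500307, so the LY500307 samples stood further apart from each other. ESR2, the gene of ERβ, had between 7 and 12 reads per sample and ESR1 had 0 in each. Of the 6 estrogen receptor and related receptor genes listed, 4 were tested and 0 met the criteria used below. Of the epithelial and SKOV3 markers, EPCAM had 6213 to 8327 reads and KRT18 had 668 to 1030. KRT8 had only 9 to 33 reads, while KRT19, CDH1, PAX8, WT1 and MUC16 had between 0 and 6. ERBB2, which SKOV3 is known to carry in amplified form, had 1452 to 2060 reads, and its vehicle level per transcript length was at percentile 54.1 of the genes tested. The label of the line was therefore not borne out by several of the markers listed, among them ERBB2 and KRT8. The cells are called SKOV3 here by their label. Of the 5 ALDH genes listed, 4 were tested and 0 differed by the criteria used below, and the list's summed level was 79.0 and 85.4 CPM (read counts scaled to library size) with vehicle and 81.7 and 85.1 CPM with LY500307. Most of this sum was ALDH2, at 61.7 and 69.1 CPM with vehicle and 66.0 and 68.7 CPM with LY500307. ALDH1A1 had 134 to 185 reads, ALDH1A2 315 to 347, ALDH1A3 8 to 16 and ALDH3A1 2 to 10.

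The liver X receptors (LXRα, encoded by NR1H3, and LXRβ, encoded by NR1H2) are nuclear receptors that bind oxysterols, oxidized forms of cholesterol, and act on DNA together with a retinoid X receptor. Their targets lower the cholesterol content of a cell. The transporters ABCA1 and ABCG1 carry cholesterol and phospholipid out of the cell, and the apolipoprotein APOE is among the acceptors of such lipid. PLTP moves phospholipid between lipoprotein particles, MYLIP marks lipoprotein receptors for degradation, and LPCAT3 places polyunsaturated chains into membrane phospholipids. These functions are best described in macrophages, liver and intestine.

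The nuclear receptor motif of this family is shown first in the promoters of ABCA1 and PLTP, ABCA1 because it held the closest match among the 7 genes with a promoter window and PLTP because it differed most between the groups. The RefSeq promoter windows used run from 250 bases before to 50 bases after an annotated start, on GRCh38.p14, and 7 of the 9 genes had at least 1 window, 11 windows in all. ABCG1 and SMPDL3A had none in the table used. The LXR element was searched as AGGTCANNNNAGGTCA, a direct repeat 4 bases apart called DR4, on both strands. Capitals mark the best match to DR4 in each window, which is read 5′ to 3′ along the gene.
ABCA1, chr9:104928106-104928405, minus strand: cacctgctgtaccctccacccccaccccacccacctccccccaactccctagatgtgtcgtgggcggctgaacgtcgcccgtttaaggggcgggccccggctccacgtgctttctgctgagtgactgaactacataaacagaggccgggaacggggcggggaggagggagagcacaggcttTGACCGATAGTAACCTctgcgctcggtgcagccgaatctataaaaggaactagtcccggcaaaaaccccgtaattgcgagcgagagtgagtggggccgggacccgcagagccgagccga
PLTP, chr20:45912106-45912405, minus strand: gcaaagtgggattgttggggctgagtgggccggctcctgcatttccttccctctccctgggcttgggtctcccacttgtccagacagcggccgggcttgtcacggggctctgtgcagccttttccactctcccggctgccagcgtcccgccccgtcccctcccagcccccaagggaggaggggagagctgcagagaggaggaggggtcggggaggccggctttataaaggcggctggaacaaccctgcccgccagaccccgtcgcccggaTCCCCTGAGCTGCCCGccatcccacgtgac
PLTP, a later start, chr20:45910945-45911244, minus strand: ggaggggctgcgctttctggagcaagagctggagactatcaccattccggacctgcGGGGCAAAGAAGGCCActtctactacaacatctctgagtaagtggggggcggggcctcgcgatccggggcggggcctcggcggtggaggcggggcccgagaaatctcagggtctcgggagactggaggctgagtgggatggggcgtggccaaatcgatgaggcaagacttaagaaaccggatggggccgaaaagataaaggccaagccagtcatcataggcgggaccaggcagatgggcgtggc

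In ABCA1 the match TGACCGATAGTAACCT lay from -69 to -54 relative to the start, on the opposite strand, with 2 mismatches. Of all 35116 windows, 2.34% held a match that close. In the first PLTP window the best match had 4 mismatches, which 72.5% of all windows reached, and in the window of the later start it had 3, which 18.6% reached. Without a mismatch, 0 of the 11 windows and 0.0199% of all windows held DR4. With 1 mismatch allowed these were 0 and 0.205%. The single repeat unit AGGTCA was in 0 of the 11 windows and in 13.8% of all windows. An estrogen response element, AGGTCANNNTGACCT, was in 0 of the 11 windows, also with 2 mismatches, where 1.18% of all windows held it. The exact DR4 contains that unit, so these searches overlap. A match is a description of these letters only, and the windows leave out more distant elements.

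PLTP, the plasma phospholipid transfer protein gene on chr20:44527260-44540794 of GRCh37 (minus strand), had 3386 and 3453 reads with vehicle and 5654 and 6370 reads with LY500307. Scaled by TMM-adjusted library sizes, these were 113 and 121.5 CPM with vehicle and 162.9 and 197.1 CPM with LY500307. Both LY500307 samples lay above both vehicle samples, and LY500307 replicate 2 was the highest. The group means were 117.2 ± 6.02 CPM (SD, n = 2) and 180.0 ± 24.2 CPM (SD, n = 2). The log2 fold change was 0.62 (standard error 0.12), which is 1.535-fold, and it stood at percentile 96.1 of all genes tested. Taken sample by sample, the log2 ratio ranged from 0.42 for LY500307 replicate 1 over vehicle replicate 2 to 0.80 for LY500307 replicate 2 over vehicle replicate 1. Between the samples of a group it was 0.10 for vehicle and 0.27 for LY500307. Without LY500307 replicate 2 the log2 fold change was 0.48, and without LY500307 replicate 1 it was 0.75. With a correction for the GC content of each transcript it was 0.52. The 3′ exon of PLTP overlaps CTSA, the gene of a lysosomal protease, on the opposite strand, and whether the counting used strand is not given in the sources used here. CTSA had 1617 and 1684 reads with vehicle and 2046 and 1992 with LY500307, and its log2 fold change was 0.09.

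Genes were called by edgeR's quasi-likelihood test, fitted over all genes. The limits were p below 0.05 before adjustment and a log2 fold change beyond 0.5 in either direction. The study's methods give the same limits, applied there to DESeq2 results. With DESeq2 here, 566 of 18407 genes met them, against 669 of 14473 with edgeR. Of the 9 genes, 1 met both criteria in the higher direction, and it was PLTP, whose rise chose it. Among all genes tested, 2.76% did so. Among the other 8 genes, 0 met both criteria in either direction, where 4.62% of all genes did so (1.86% in the lower direction). A count of 0 is near that share. No gene of the 14473 had an adjusted p below 0.05 with edgeR, while 1678 had an unadjusted p below 0.05 and by DESeq2 the adjusted p was below 0.05 for 16 genes. The smallest two-sided p of an exact permutation test on 1 gene is 0.333 with 2 samples per group. All 8 log2 fold changes of the genes other than PLTP were above 0, where 50% of all genes were. With a correction for transcript length, those of SMPDL3A and NPC2 were -0.018 and -0.0091. In 6 of the 9 genes, and in 5 of the 8 without PLTP, both LY500307 samples lay above both vehicle samples, where 24.2% of all genes showed this. In 3 genes the groups overlapped. The median log2 fold change was 0.17 over the 8 genes without PLTP and 0.18 over all 9, and close to 0 over all genes tested. In bulk samples a smaller share of cells with a transcript and less of it per cell cannot be told apart, and the same holds for increases.

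**Figure D1:**
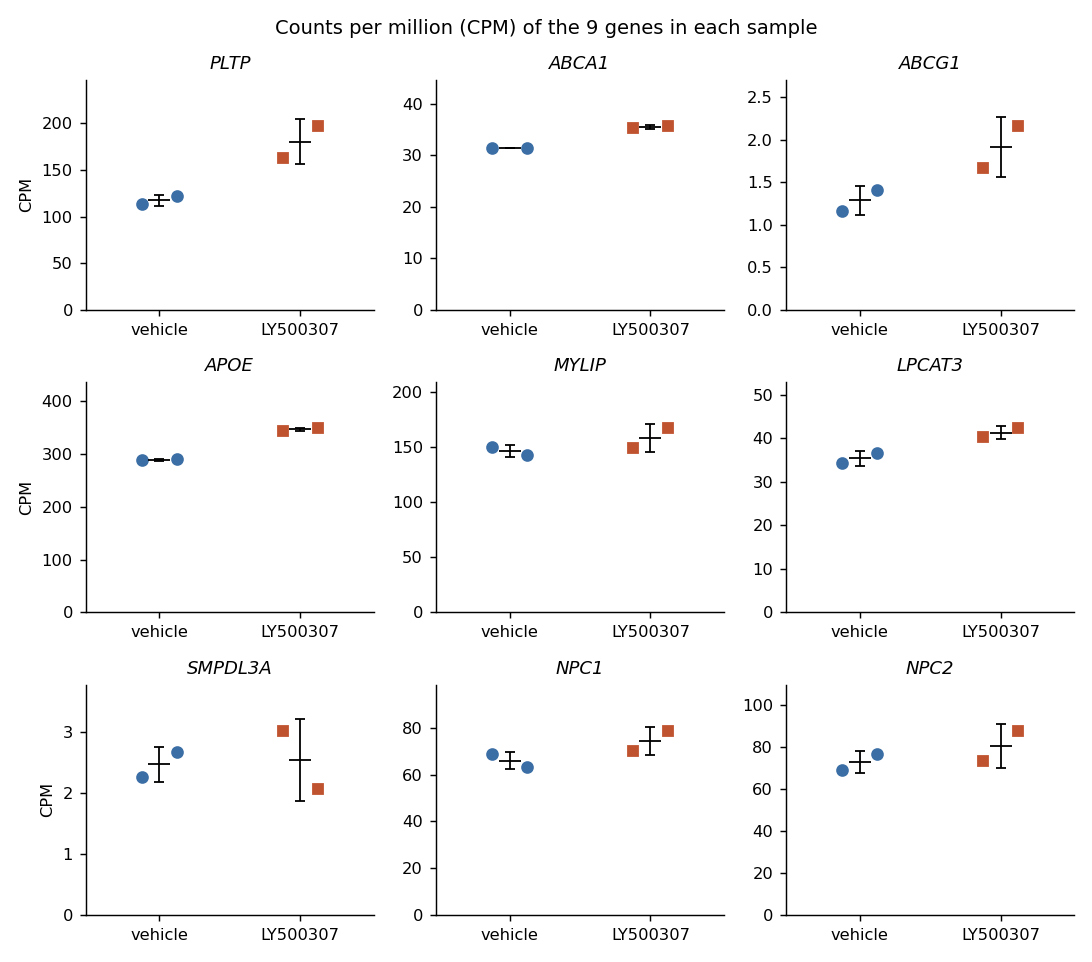
CPM (vertical axes, from 0, a scale of its own for each gene) of the 9 genes in the 2 vehicle samples (circles) and the 2 LY500307 samples (squares), with the mean and SD of each group in black. The groups are apart for PLTP, ABCA1, ABCG1, APOE, LPCAT3 and NPC1 and overlap for MYLIP, SMPDL3A and NPC2.

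The efflux transporters were ABCA1 and ABCG1. ABCA1, on chr9:107543287-107690436 (GRCh37, minus strand), had 31.40 and 31.46 CPM with vehicle and 35.24 and 35.73 CPM with LY500307. Each LY500307 sample was above each vehicle sample, and the samples within a group were nearly equal, with a log2 ratio of 0.0027 for vehicle and 0.02 for LY500307. Its log2 fold change was 0.18 (standard error 0.12, 95% interval -0.09 to 0.44, edgeR adjusted p = 0.532). ABCG1, on chr21:43619799-43717354 (plus strand), rested on few reads. It had 35 and 40 reads with vehicle and 58 and 70 reads with LY500307, or 1.17 and 1.41 CPM against 1.67 and 2.17 CPM. Both LY500307 samples were again the higher ones. The exact Poisson 95% interval of the 70 reads in LY500307 replicate 2 was 54.6 to 88.4, and such intervals cover counting error only. Its log2 fold change of 0.57 was the closest to that of PLTP, but its standard error was 0.34. Its 95% interval ran from -0.21 to 1.36 (edgeR adjusted p = 0.493), so no difference was shown.

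APOE encodes an apolipoprotein that accepts exported lipid and is bound by lipoprotein receptors. It lies on chr19:45409048-45412650 of GRCh37 (plus strand). It had 8628 and 8244 reads with vehicle and 11938 and 11271 reads with LY500307, which were 287.9 and 290.1 CPM against 344.0 and 348.7 CPM. The LY500307 samples were above the vehicle samples and each pair was close together, at 289.0 ± 1.55 CPM and 346.3 ± 3.34 CPM (SD, n = 2 each). The log2 fold change was 0.26 (standard error 0.10, 95% interval 0.03 to 0.49). APOE was the only one of the 8 genes chosen by role with an unadjusted p below 0.05 in edgeR's quasi-likelihood test, where 6.09% of all genes were in that direction, and its edgeR adjusted p was 0.422. The APOE transcript had the highest GC content of the 9 genes, 69.0%, and with the GC correction its log2 fold change was 0.06 (standard error 0.11, edgeR adjusted p = 0.837). That of PLTP, at 59.6% GC, went from 0.62 to 0.52 under the same correction.

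MYLIP, also called IDOL, is a ubiquitin ligase that targets lipoprotein receptors. On chr6:16129317-16148479 (GRCh37, plus strand), it had 150.4 and 143.0 CPM with vehicle and 149.1 and 167.3 CPM with LY500307. The groups overlapped, since LY500307 replicate 1 lay between the vehicle samples. Its log2 fold change was 0.11 (95% interval -0.13 to 0.35, edgeR adjusted p = 0.655). LPCAT3, the lysophosphatidylcholine acyltransferase gene on chr12:7085347-7125781 (minus strand), had 34.27 and 36.66 CPM with vehicle and 40.25 and 42.35 CPM with LY500307. Both LY500307 samples were higher, and the log2 fold change was 0.22 (95% interval -0.05 to 0.49, edgeR adjusted p = 0.458). An exon of LPCAT3 overlaps EMG1, a ribosome assembly factor gene, on the opposite strand. EMG1 had 1222 and 1099 reads with vehicle and 1422 and 2094 with LY500307, and the part of such reads in the LPCAT3 values was not tested.

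SMPDL3A encodes a secreted phosphodiesterase related to acid sphingomyelinase. On chr6:123110194-123130865 (GRCh37, plus strand), it had 68 and 76 reads with vehicle and 105 and 67 reads with LY500307. The LY500307 samples lay on either side of the vehicle samples, at 3.02 and 2.07 CPM against 2.27 and 2.67 CPM. Its log2 fold change of 0.05 had a 95% interval from -0.65 to 0.75 (edgeR adjusted p = 0.953). Its sign depended on the sample, with 0.29 for LY500307 replicate 1 alone and -0.25 for LY500307 replicate 2 alone against both vehicle samples.

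NPC2 and NPC1 hand cholesterol from the lysosomal lumen to its membrane, the step that precedes export. NPC1, on chr18:21086148-21166470 (GRCh37, minus strand), had 68.63 and 63.33 CPM with vehicle and 70.02 and 78.71 CPM with LY500307. The LY500307 samples were higher, although replicate 1 was only just above vehicle replicate 1. The log2 fold change was 0.17 (95% interval -0.09 to 0.43, edgeR adjusted p = 0.524). NPC1 shares exonic sequence with RMC1 on the opposite strand, listed as C18orf8 in the files, whose log2 fold change was 0.14. NPC2, on chr14:74942895-74960880 (minus strand), had 69.10 and 76.49 CPM with vehicle and 73.07 and 87.71 CPM with LY500307, so that the groups overlapped. Its log2 fold change was 0.14 (95% interval -0.14 to 0.43, edgeR adjusted p = 0.619). NPC2 has the shortest transcript of the 9 genes, 821 bases, and with a correction for transcript length its log2 fold change was -0.0091.

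**Figure D2:**
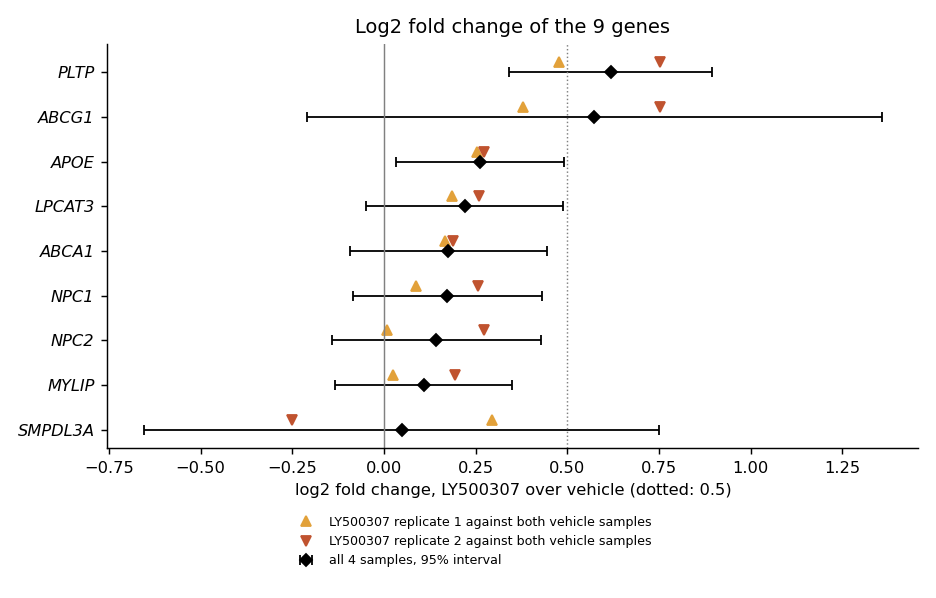
Log2 fold change of LY500307 over vehicle (horizontal axis) for the 9 genes from edgeR with all 4 samples (diamonds, bars are 95% intervals), and for each LY500307 sample by itself against the vehicle pair (triangles). PLTP, drawn as a description because its rise chose it, has the highest value, and for every gene but SMPDL3A the value of LY500307 replicate 2 is above that of replicate 1.

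The spread between the LY500307 samples was not alike across these genes. When only LY500307 replicate 2 was set against the vehicle pair, the log2 fold change was 0.27 for NPC2, 0.26 for NPC1 and 0.19 for MYLIP. For replicate 1 by itself they were 0.0079, 0.09 and 0.03. For APOE the corresponding values were 0.27 and 0.25, for ABCA1 0.19 and 0.17, and for LPCAT3 0.26 and 0.19. PLTP and ABCG1 had 0.75 and 0.75 with replicate 2, and 0.48 and 0.38 with replicate 1. The values of APOE and ABCA1 were thus close to each other in both samples, and those of NPC2 and MYLIP came mostly from LY500307 replicate 2. With 1 LY500307 sample left, the spread rests on the vehicle pair only, so these values are given without p-values. The GC correction with all samples took the log2 fold change of APOE to 0.06.

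Levels could be compared between the genes after division by the length of the canonical transcript (GENCODE annotation on GRCh37), in CPM per kilobase. In vehicle samples APOE was the most abundant, at 247.8, followed by NPC2 at 88.7, PLTP at 62.1, MYLIP at 47.8, LPCAT3 at 15.9, NPC1 at 13.9, ABCA1 at 3.02, SMPDL3A at 1.40 and ABCG1 at 0.433. Among the 13786 genes tested that had a length, APOE stood at percentile 99.01, PLTP at 91.4, ABCA1 at 28.9 and ABCG1 at 10.5. APOE, NPC2 and PLTP were thus abundant in these cells, and ABCA1, SMPDL3A and ABCG1 were low. In the vehicle group no neighbours in this order overlapped. In the LY500307 group the order of the means was the same, but PLTP, at 86.2 and 104.3 CPM per kilobase, overlapped NPC2, at 89.0 and 106.8. The other neighbours stayed apart. These levels depend on the annotated transcript, which may not be the one expressed.

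**Figure D3:**
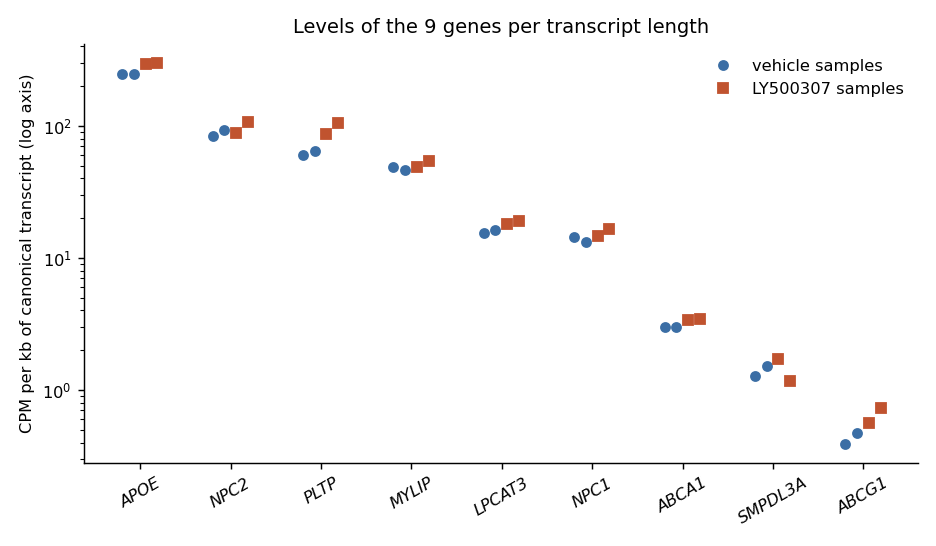
Level of each gene in CPM per kilobase of canonical transcript (vertical log axis) in the vehicle samples (circles) and LY500307 samples (squares), ordered by vehicle level. The genes span from 0.392 to 299.1 CPM per kilobase, and PLTP reaches the level of NPC2 in the LY500307 samples.

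The receptors themselves were present at moderate levels. NR1H2 had 20.42 and 16.75 CPM with vehicle and 17.14 and 23.51 CPM with LY500307, and NR1H3 had 10.08 and 10.03 CPM against 10.34 and 11.20 CPM. Per kilobase, NR1H2 was at 7.69 and NR1H3 at 5.43 CPM in vehicle samples. RXRA had a log2 fold change of 0.09 and RXRB, the highest of the list, 0.19. Of 12 receptor and coregulator genes, 10 were tested, 5 were above 0 and 0 met both criteria, against 4.62% of all genes in either direction. The lowest was the corepressor NCOR1 at -0.14. RXRG had at most 1 read.

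Among 20 other genes known as LXR targets, 13 were tested and 0 met both criteria, beside 4.62% of all genes in either direction, so that a count of 0 is near the background. In this list 9 were above 0, beside 50% of all genes, and the median log2 fold change was 0.09. The same shares of all genes apply to each list below. SREBF1, which encodes the lipogenic transcription factor that LXR induces, had 126.6 and 132.5 CPM with vehicle and 135.4 and 160.6 CPM with LY500307, a log2 fold change of 0.19. Its own targets FASN and SCD, fatty acid synthase and stearoyl-CoA desaturase, had 0.17 and -0.06. APOC1, a neighbour of APOE on chromosome 19, had the highest value at 0.45, which came from LY500307 replicate 2, with 35.67 CPM against 22.82 CPM in replicate 1 and 20.58 and 22.12 CPM with vehicle. MLXIPL, a glucose-sensing lipogenic factor, had the lowest at -0.49 and lay just inside the limit of 0.5, with 24.62 and 27.69 CPM in vehicle samples and 20.11 and 17.02 CPM in LY500307 samples. ABCG5, ABCG8, APOC2 and APOC4 had 0 reads in every sample.

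Oxysterols are the ligands of LXR. Of 11 genes that make or inactivate them or their precursors, 7 were tested, 5 were above 0 and 0 met both criteria. The extremes of this list, SULT2B1 at 0.63 and CYP27A1 at -0.36, rested on 5 to 24 and 5 to 12 reads. Of 20 genes induced by SREBP2, the factor that raises cholesterol synthesis and uptake, 19 were tested, 10 were above 0 and 0 met both criteria. Their median log2 fold change was 0.02, from -0.26 for SC5D to 0.30 for PMVK, and SREBF2 itself had 0.21.

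MYLIP acts on lipoprotein receptors, and all 12 such genes listed were tested. Of these 6 were above 0, 0 met both criteria, and the median log2 fold change was 0.04. LRP1, a large endocytic receptor that binds APOE, had 181.8 and 174.3 CPM with vehicle and 228.2 and 259.0 CPM with LY500307. Its log2 fold change of 0.45 had an unadjusted p of 0.00307 and an adjusted p of 0.422 from edgeR's quasi-likelihood test, and it fell short of the 0.5 limit. LRP8, another APOE receptor, had a log2 fold change of -0.29, with 75.74 and 70.86 CPM against 62.96 and 57.27 CPM. The unadjusted p of LRP8 was 0.0301 and its adjusted p 0.422, from the same test. LRP2, at -0.58, rested on 2 to 23 reads, and SCARB1, the HDL receptor, had 0.16. Of 16 apolipoprotein genes other than APOE, 9 were tested, 6 were above 0 and 0 met both criteria, with a median log2 fold change of 0.01 and the lowest value, -0.06, in APOOL.

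Beside NPC1 and NPC2, 18 other genes of late endosomal and lysosomal lipid handling were listed and all were tested. Of these 16 were above 0, the median log2 fold change was 0.19 and 0 met both criteria. In 12 of them both LY500307 samples were above both vehicle samples, beside 24.2% of all genes. PSAP, the precursor of the saposins, had 0.30, LIPA, the lysosomal acid lipase, had 0.12, and NPC1L1 was the lowest at -0.36 with 10 to 24 reads. In the sphingomyelinase family, to which SMPDL3A belongs, 5 of 6 other genes were tested, 4 were above 0 and 0 met both criteria, from -0.14 for SMPD3 to 0.20 for SMPD1. SMPDL3B, the closest relative of SMPDL3A, had 0.03.

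**Figure D4:**
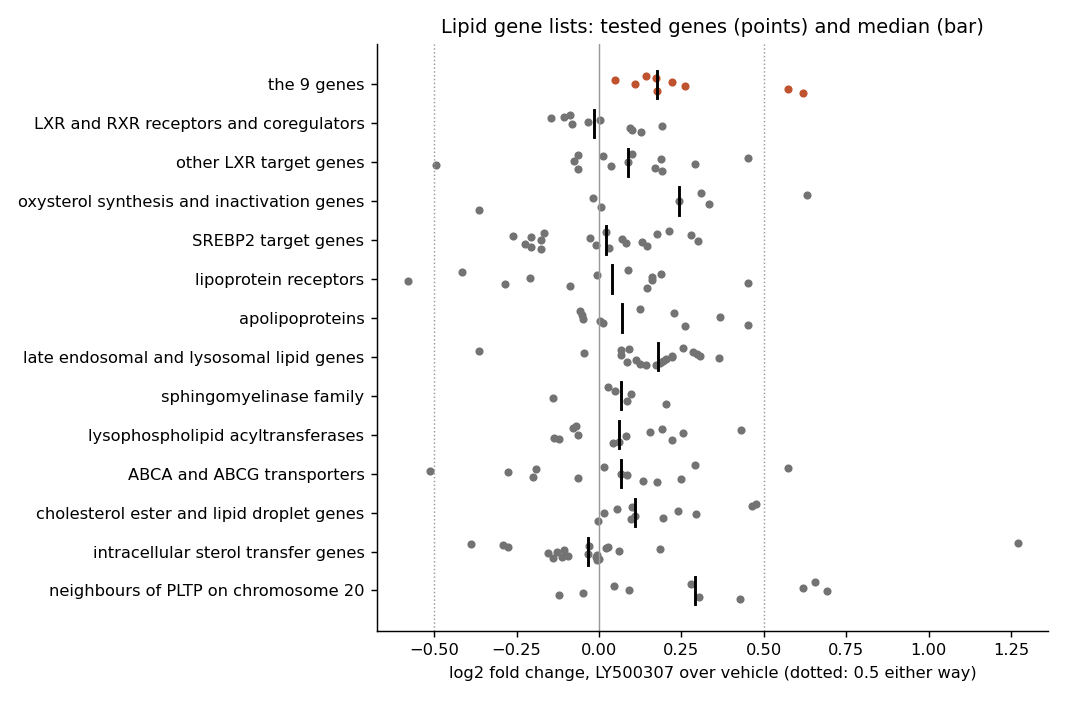
Log2 fold change of LY500307 over vehicle (horizontal axis) for each tested gene (points) of the 9 genes and of 13 other gene lists, with the median of each list (bars). The medians lie between -0.03 and 0.29, and the apolipoprotein, lysosomal, sphingomyelinase, acyltransferase, transporter and neighbour lists are drawn with those of the 9 genes that belong to them.

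LPCAT3 belongs to the lysophospholipid acyltransferases. The 12 others listed were all tested, 7 were above 0, 0 met both criteria, and values ran from -0.14 for LPGAT1 to 0.43 for AGPAT2. LPCAT1 had 0.04. Of 15 ABCA and ABCG transporter genes other than ABCA1 and ABCG1, 11 were tested and 6 were above 0. The only one to meet both criteria was ABCA10, which was lower, as were 1.86% of all genes, with 374 and 314 reads in vehicle samples and 310 and 244 with LY500307, and its log2 fold change was -0.51 (edgeR adjusted p = 0.422). ABCA7, the closest relative of ABCA1, had 0.08. PLTP was the only gene of 9 in the family of BPI-fold lipid transfer proteins to be tested, and 5 of the 9 had 0 reads in every sample. CETP, its relative in plasma lipid exchange, had 0 to 5 reads.

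Of 14 genes for cholesterol esters and lipid droplets, 11 were tested, 10 were above 0 and 0 met both criteria. The median was 0.11, from -0.0028 for SOAT1, which esterifies cholesterol, to 0.48 for DGAT2, a triglyceride synthase gene. Of 20 genes for sterol transfer between membranes, all were tested, 5 were above 0, 0 met both criteria and the median was -0.03. CAV2, at 1.27, rested on 4 to 42 reads, and CAV1 was the lowest at -0.39.

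The genes that flank PLTP on chromosome 20 were also compared. Of 10 genes other than PLTP, 9 were tested, 7 were above 0 and the median log2 fold change was 0.28. In the higher direction 1 of the 9 met both criteria, beside 2.76% of all genes. This was NEURL2, with 74 and 84 reads with vehicle and 123 and 169 reads with LY500307, a log2 fold change of 0.69 (edgeR adjusted p = 0.427). The nearest neighbours differed, since CTSA had 0.09 and PCIF1 0.05, and ZSWIM1 was the lowest at -0.12.

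Over the 4 samples, the genes whose log2 CPM profile lay nearest to that of PLTP were C1orf38, TSPAN33, C9orf16, TLCD1 and ATP5D. Their Euclidean distances to it were 0.0334, 0.0534, 0.0596, 0.0597 and 0.0728 after each profile was centred on its own mean. ABCG1 was the closest of the 8 other genes, at 0.140, with 43 genes nearer. APOE followed at 0.401, with 1520 genes nearer, and SMPDL3A was the farthest at 0.825. With only 4 samples, many genes share such a profile.

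Markers of macrophages and hepatocytes, cell types in which LXR targets are abundant, were low. Of 10 macrophage markers 3 were tested, their summed level was 14.01 and 15.66 CPM with vehicle and 19.7 and 12.9 CPM with LY500307, and most of it was CD68, while CSF1R had 0 to 1 reads, PTPRC 0 to 4 and MARCO 0. The 6 hepatocyte markers together had 13 to 40 reads per sample and none was tested. Of 5 endothelial markers only KDR was tested, with 0.01, and their summed level was 150.3 and 133.3 CPM against 151.5 and 135.2 CPM. Nearly all of that sum was KDR, at 150.2 and 132.8 CPM with vehicle, while PECAM1, CDH5, VWF and TEK had 0 to 11 reads. The summed level of 6 fibroblast markers was higher with LY500307, at 607.9 and 706.3 CPM against 519.4 and 530.8 CPM. This came mainly from COL1A2 and COL1A1, at log2 fold changes of 0.44 and 0.28. Both LY500307 samples were above both vehicle samples in 2 of the 6 markers, beside 24.2% of all genes. They were below in 2, DCN (-0.20) and LUM (-0.10), beside 24.4% of all genes. The part of these markers in the values of PLTP and APOE was not tested.

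**Figure D5:**
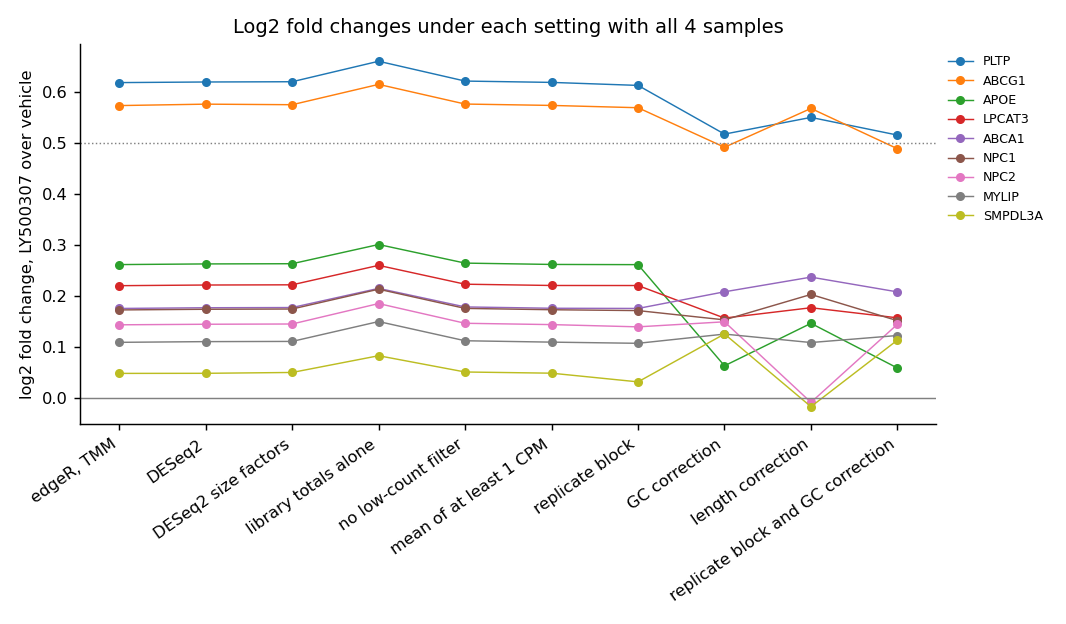
Log2 fold change of LY500307 over vehicle (vertical axis) of the 9 genes under the edgeR fit and each of 9 alternative settings with all 4 samples (horizontal axis). PLTP stays above the dotted line at 0.5 in each, APOE drops from 0.26 to 0.06 with the GC correction, and NPC2 and SMPDL3A dip just below 0 with the length correction.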

How the data were processed

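RNA-seq libraries of SKOV3-ALDH+ OCSCs, 2 with vehicle and 2 with LY500307, were grouped by the sample titles. The submitters' processing notes name bcl2fastq, TopHat2 2.0.8b, HTSeq and hg19, and the values deposited by the authors are raw read counts per gene symbol, without normalization. The strand setting was not given in the sources used here, and the labels describe total RNA libraries where the paper describes stranded mRNA libraries. The summary rows were not used as genes. Reads in no gene were 25.5% to 30.8%, and reads in more than 1 gene 0.661% to 0.710%, of all gene, ambiguous and no-gene reads.

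Counts were tested with edgeR 4.0.16 in R 4.3.3 (TMM, filterByExpr, quasi-likelihood test, Benjamini-Hochberg adjustment over all genes). The standard error is the absolute log2 fold change divided by the square root of F. Alternatives were DESeq2 1.42.0, other scalings and filters, a replicate block, GC and length corrections (loess on log2 CPM, prior count 2, span 0.3) and leaving out each sample. Lengths and GC content came from canonical transcripts, matched for 91.8% of symbols.

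The 9 genes and the gene lists, written from general knowledge, were chosen with earlier results of these data known. Named genes are the 9, the receptors, their relatives and neighbours, list genes that met the criteria, the highest and lowest of each list and the 5 nearest PLTP in profile. Others were named after their values were seen. Some genes that this rule names are not reported here.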

Additional observations from a re-analysis of the deposited data

How the results depend on the processing

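The log2 fold change of PLTP, a description, was 0.48 without LY500307 replicate 2. Over the 9 alternatives with all samples it ranged from 0.52 to 0.66, and APOE from 0.06 to 0.30. ABCA1, ABCG1, APOE, MYLIP, LPCAT3 and NPC1 stayed above 0 in all 13 alternatives. With the length correction SMPDL3A was -0.018 and NPC2 -0.0091, and with a sample left out SMPDL3A ranged from -0.25 to 0.29. The cause was not tested. Leaving out each sample gave 0 to 1 of the 9 genes meeting both criteria, 352 to 1987 of all genes and 0 to 11 of the other list genes, and 0 to 5002 genes with an adjusted p below 0.05. Without LY500307 replicate 2 and replicate 1 in turn, 352 and 1987 genes met both criteria and 590 and 5002 had an adjusted p below 0.05, and there the spread rests on the vehicle pair and the lone sample is assumed to vary alike. Of the other list genes, 169 were tested and 2 met both criteria (ABCA10 and NEURL2), beside 4.62% of all genes. With DESeq2 it was 1 (ABCA10) and with the GC correction 1 (MLXIPL). With the length correction it was 2 (LRP1 and SLC12A5) and with library totals alone 3 (DGAT1, NEURL2 and SLC12A5), so the genes called changed with the setting. Genes with an adjusted p below 0.05 numbered 0 in the edgeR fit, 16 by DESeq2, 1 under the replicate block and 26 when replicate block and GC correction were joined. Same-numbered samples did not deviate together (correlation -0.070 across 14473 genes), so no pairing was taken from the numbers. Under the replicate block 717 genes met both criteria, against 669 without it, and PLTP had 0.61. The share of higher genes among those called was 59.8%, 49.5% with the length correction and 47.6% with the replicate block and GC correction. With a prior count of 0.5, 4 of the 5 genes nearest PLTP were the same. Allowing 2 mismatches in DR4, a choice made after seeing the data, gave 1 window of the 11, that of ABCA1, and in the estrogen element it gave 0. ABCG1 and SMPDL3A had 35 to 105 reads per sample. Their 95% intervals, -0.21 to 1.36 and -0.65 to 0.75, held both 0 and the 0.62 of PLTP.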
